A study of Bos taurus with 6 samples.

Results

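The mRNA pool of untargeted bovine eggs at metaphase II was described from the 3 libraries titled NC, the negative control group, which are 3 of the 6 libraries in the series. They were chosen by their titles, and all 17325 genes of the files were read in each. The oocytes (Bos taurus) had been matured in vitro to metaphase II, where the egg rests until a sperm enters. The 3 remaining libraries come from oocytes of the same stage with knockdown of MTFP1, a gene of the inner mitochondrial membrane. The labels name no strain, age, donor, dose, control agent or number of oocytes per library, so whether the 3 controls are separate cultures or animals is not stated, and their spread may be technical.

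A fully grown oocyte makes and stores most of the mRNA that the early embryo will use, and transcription is largely silent by metaphase II. The pool is then controlled through poly(A) tails, which decide whether a stored message is translated or destroyed. Metaphase arrest is held by cyclin B with CDK1 and by the MOS kinase pathway, and securin keeps chromosomes together until fertilization. The zona pellucida coat and secreted factors such as GDF9 and BMP15 come from the oocyte, and maternal effect proteins are laid down for the embryo.

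Levels are FPKM, in which fragments are scaled to transcript length and to the mapped total of the library, as the authors deposited them. Because FPKM is scaled for length, levels of different genes are set side by side here. A gene's FPKM divided by the summed FPKM of its library is read as its share of the transcripts measured. Whether messages of different length or poly(A) tail were captured evenly was not tested, and the ranks and shares carry this limit. Depth is unknown, since FPKM carries no read total, so no counting interval is given. The sum per library lay between 823443 and 862657 FPKM, and 15120 to 15411 genes lay above 0. Across all genes the log2(FPKM + 1) values of library pairs correlated at 0.989 to 0.990 (Pearson, a description, since genes are not independent replicates). MTFP1 itself was low in controls 1, 2 and 3, at FPKM of 0.53, 0.55 and 0.05, and ranked 11556 of 17325 genes by mean.

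The label "oocyte" was checked against markers. All 19 oocyte markers had a mean of at least 1 FPKM and 13 had at least 100, led by BTG4 at 10610.2 ± 1322 FPKM (SD, n = 3). The weakest were NOBOX at 1.67 ± 0.250, NLRP5 at 4.52 ± 0.649 and the germ cell helicase gene DDX4 at 5.34 ± 1.67. Of 21 cumulus and granulosa markers, which mark the somatic cells around the egg, 0 had a mean of at least 100 FPKM, 5 of at least 10 and 13 of at least 1. The 5 were STAR, HAS2, KRT8 (16.9 ± 4.51 FPKM), VCAN (14.5 ± 2.04) and SERPINE2 (14.5 ± 1.69). Of all 17325 genes, 9609 had a mean of at least 1 FPKM, 4525 of at least 10 and 1146 of at least 100. The counts of 13 and 5 lay near these shares, so they do not set the cumulus and granulosa markers apart from genes in general. Among the lowest of the 21 were FSHR at 0, 0 and 0.02 FPKM, FOXL2 at 0.03, 0.02 and 0.01, and AMH at 0.18, 0 and 0. The list summed to 196, 178 and 168 FPKM in controls 1, 2 and 3, of which the steroid carrier gene STAR (64.8 ± 9.28 FPKM) and the hyaluronan synthase gene HAS2 (38.0 ± 3.61) made up the largest parts. The theca and stroma markers summed to 16.3, 7.36 and 10.9 FPKM, and the leukocyte markers to 4.94, 5.71 and 2.58. In a bulk library fewer cells of a type and less RNA per cell cannot be told apart.

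The pool was steep. Of 17325 genes, 9609 had a mean of at least 1 FPKM, 4525 of at least 10, 1146 of at least 100 and 124 of at least 1000. A total of 725 genes were listed at 0 in all 3 controls. The 10 most abundant genes held 21.4% ± 1.19 (SD, n = 3) of the summed FPKM, the top 100 held 46.8% ± 1.57 and the top 1000 held 82.4% ± 1.18. It took 134, 131 and 110 genes to reach 50% of the sum in controls 1, 2 and 3, and 1681 to 1960 genes to reach 90%. The leading genes recurred between libraries, since 9 of the top 10 and 88 of the top 100 were shared by all 3.

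At the head stood TMSB4X, which encodes thymosin beta 4, a small peptide that binds actin monomers. It measured 58052, 51537 and 65314 FPKM in controls 1, 2 and 3 and ranked first in each. The securin gene PTTG1 followed with 25684, 28335 and 30009 FPKM. CKS1B, a small subunit that docks cyclin-dependent kinases on their substrates, measured 21826, 26618 and 32887 FPKM. PTTG1 ranked above CKS1B in controls 1 and 2 and below it in control 3. The 3 genes held 12.8%, 12.6% and 14.9% of the summed FPKM. ID3, an inhibitor of helix-loop-helix transcription factors, was the fourth, with 14600.3, 14298 and 14775 FPKM, and OOSP2, an oocyte secreted protein, was the fifth by mean, with 10706, 11095 and 10795. The mRNA decay adaptor gene BTG4 measured 9516, 10236 and 12079 FPKM, so that its order with OOSP2 turned over in control 3. Of the 30 most abundant genes 29 had a coefficient of variation (CV, the SD divided by the mean) below 0.2, and CKS1B had 0.205.

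**Figure D1:**
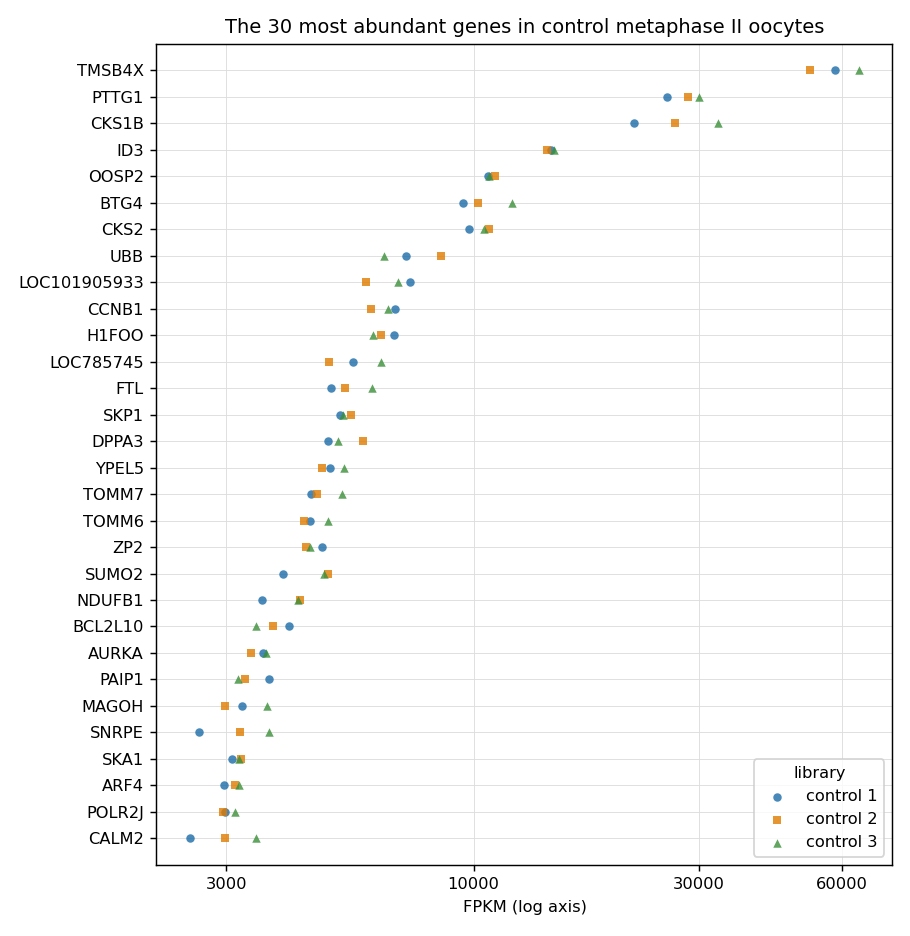
The 30 genes with the highest mean FPKM, on a log axis, with 1 point for each of the 3 control libraries. TMSB4X lies apart at the top in every library, and the 3 points of ID3 (CV 0.0166) nearly coincide while those of CKS1B (CV 0.205) spread.

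Genes were sorted into 25 functional classes by symbol, each gene in 1 class. These classes held 3793 genes and 59.9%, 60.5% and 61.3% of the summed FPKM in controls 1, 2 and 3. Meiotic cell cycle control was the largest with 11.1% ± 0.734 (SD, n = 3) from 132 genes, followed by the cytoskeleton (tubulins, actins and their turnover) with 7.77% ± 0.747 from 126 genes. Cytosolic ribosomal proteins held 4.74% ± 0.300, the nuclear genes of the respiratory chain 3.51% ± 0.0584, ubiquitin and its conjugation 3.41% ± 0.179, and transcription factors and their regulators 3.16% ± 0.0709. The first 3 classes kept this order in all 3 libraries. The next 4, with RNA synthesis and splicing at 3.09% ± 0.0409, lay close, and their order differed between libraries.

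**Figure D2:**
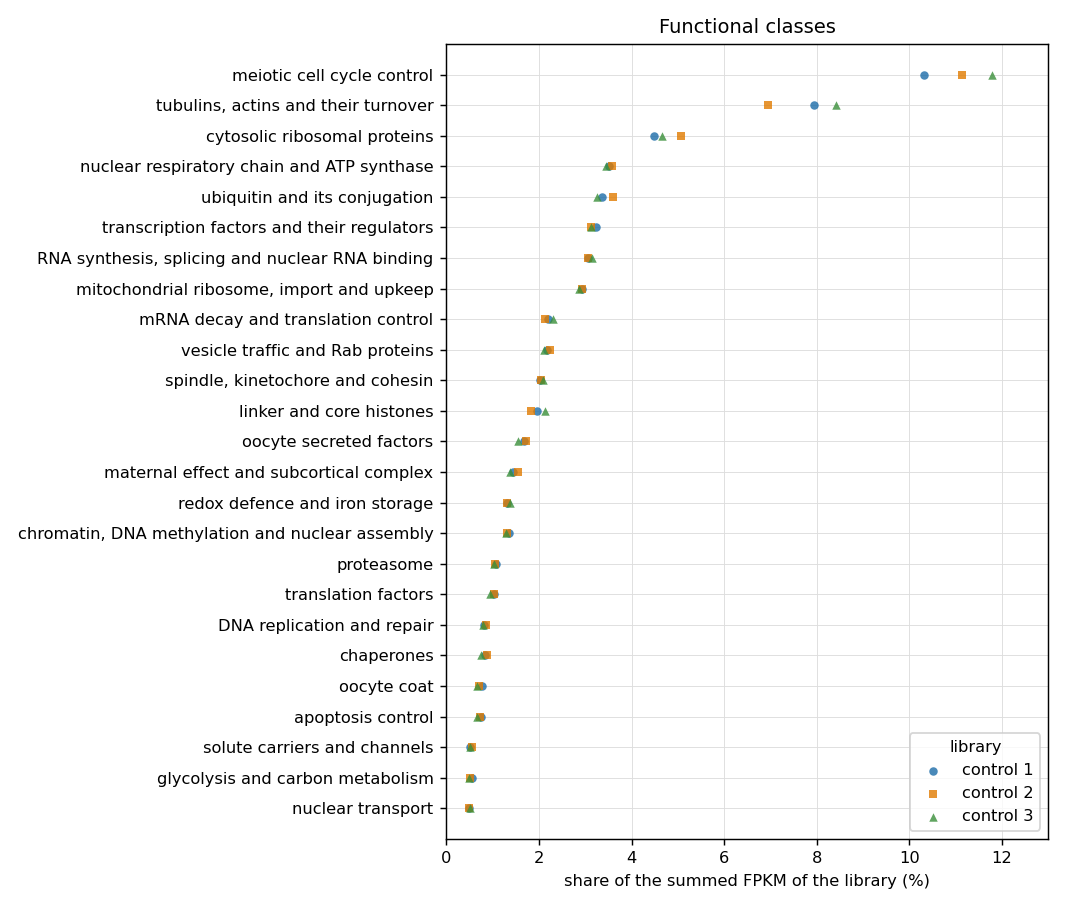
Share of each library's summed FPKM, in percent, held by 25 functional classes, with 1 point per control library. Meiotic cell cycle control lies at 10.3% to 11.8% and the cytoskeleton at 6.95% to 8.41%, while nuclear transport lies at 0.492% to 0.514%.

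Within meiotic cell cycle control a few small regulators carried the class. Securin gene PTTG1 led it. CKS1B, CKS2 (10341 ± 510.2 FPKM) and the cyclin gene CCNB1 (6484 ± 381) stood far above the kinase they act with, since CDK1 measured 48.9, 67.0 and 64.0 FPKM. The cyclin gene CCNB2 measured 516 ± 10.6 and CCNB3 52.4 ± 13.3 FPKM. Of the enzymes that switch CDK1, the oocyte form WEE2, which restrains it, measured 374 ± 40.0 FPKM against 0.157 ± 0.0306 for the somatic WEE1, and the activating phosphatase CDC25C measured 112 ± 7.74. Separase, the protease that securin holds back, is encoded by ESPL1, which measured 7.51, 7.98 and 7.52 FPKM. The aurora kinase genes stood at 3539 ± 133 (AURKA), 499 ± 49.6 (AURKC) and 281 ± 31.8 (AURKB), and the levels of the 3 genes did not overlap between libraries.

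The anaphase-promoting complex destroys securin and cyclin, and its controls differed widely in level. Its inhibitor FBXO43 (EMI2), which keeps the egg arrested, measured 41.0, 35.4 and 35.8 FPKM, and the related FBXO5 (EMI1) 568, 525 and 543. The activator CDC20 measured 195 ± 4.64 FPKM and the other activator gene, FZR1, 0.670 ± 0.233. Its ubiquitin-conjugating enzyme UBE2C was among the less steady of the class, with 758, 1391 and 1174 FPKM. MOS, the kinase that starts the arresting pathway, measured 1455, 1514 and 1718 FPKM, its substrate MAP2K1 107 ± 10.7, and MAPK3, a kinase gene below it, 1.93 ± 0.297.

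In the cytoskeleton class TMSB4X alone made up 89.0% of the FPKM, and without it the class would have been led by the actin-binding gene PFN1 at 2123 ± 235 FPKM. The paralog TMSB10 measured 337, 313 and 379 FPKM. The cytoplasmic actin gene ACTB measured 210.4, 163 and 160.4 FPKM, and ACTG1 193, 164 and 76.4, so control 3 was low in ACTG1. Of the genes for the spindle, kinetochore and cohesin (158 genes, 2.06% ± 0.0330) CENPV led with 2926 ± 245 FPKM, followed by the centrin gene CETN3 with 1590.1 ± 228 and the checkpoint gene MAD2L1 with 1129 FPKM. This order covers the listed symbols only, since the list leaves out the kinetochore genes SKA1 (3164 ± 71.4 FPKM) and KNSTRN (1607 ± 234).

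The leading genes known for the oocyte were high, but their classes were uneven. The median gene had 323 FPKM in the oocyte coat class, 9.14 among oocyte secreted factors and 38.1 among maternal effect genes. Oocyte secreted factors (10 genes) held 1.65% ± 0.0906 of the sum, of which OOSP2 was 78.0%. BMP15 measured 2775, 3123 and 2319 FPKM and its partner GDF9 302, 308 and 252, so BMP15 was higher in each library and both were lowest in control 3. Of the coat genes ZP2 measured 4768, 4427 and 4503 FPKM, ZP4 1203, 1219 and 936, and ZP3 312, 332 and 326. The order ZP2, ZP4, ZP3 held in every library. Among 36 maternal effect genes (1.45% ± 0.0876), DPPA3, which protects maternal DNA methylation, led with 4910, 5835 and 5179 FPKM. ACCSL followed with 2402 ± 142, the oocyte importin gene KPNA7 with 1699 ± 77.9, ZAR1L with 659 and the subcortical complex gene OOEP with 628 ± 19.3 FPKM.

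The class for mRNA decay and translation control held 2.21% ± 0.0828 in 91 genes, of which 85 had a mean of at least 1 FPKM and 13 of at least 100. BTG4 made up 57.0% of it. PAIP1, which binds poly(A)-binding protein, measured 3696, 3277 and 3182 FPKM, the polyadenylation switch gene CPEB1 averaged 447 and the deadenylase gene CNOT7 404. The translational regulator DAZL was less even, with 47.3, 22.4 and 21.2 FPKM. Its level in control 1 was the highest, and those in controls 2 and 3 lay close together.

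Linker and core histones held 1.98% ± 0.149 in 44 genes. The oocyte linker histone H1FOO measured 6798, 6364 and 6132 FPKM and made up 38.5% of the class. HIST1H2AH averaged 2539 ± 392, the replacement histone H3F3B 1762 ± 268 and the linker histone HIST1H1A 1338 ± 255 FPKM. Histone genes have near-identical copies whose shared reads may have been divided in ways the sources used here do not give, so the values of single copies are uncertain. Among chromatin genes (157 genes, 1.32% ± 0.0299) the chaperone subunit RBBP7 led with 1925 ± 165 FPKM. NPM1 averaged 1369.0 and the histone chaperone ASF1B 1272 FPKM. UHRF1, the partner of the maintenance methyltransferase, measured 556, 392 and 288 FPKM, while DNMT1 measured 18.1, 15.5 and 15.8, DNMT3B 24.7 ± 0.961 and DNMT3A 0.353 ± 0.0757.

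Of 87 cytosolic ribosomal protein genes 85 had a mean of at least 1 FPKM and 61 of at least 100. RPS27A led with 2341, 2594 and 2347 FPKM, followed by RPS20 with 2093 ± 55.2, RPLP1 with 2049 ± 364 and RPS2 with 1947 ± 203. Subunits of the same ribosome lay far lower, such as RPL3 at 17.7 ± 8.81 FPKM, RPL13 at 25.7 ± 3.36 and RPS9 at 27.3 ± 0.135. Many ribosomal protein genes have processed copies in the genome, so reads may be split between them. Among translation factors (88 genes, 1.00% ± 0.0532) EIF1 averaged 1897 ± 52.4 and the helicase EIF4A1 1223 FPKM, while the elongation factor EEF1A1, a common reference gene in somatic cells, measured 43.1, 38.9 and 35.7. The reference gene GAPDH measured 86.4, 61.0 and 48.8 FPKM and ranked 1547 by mean.

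Nuclear genes for the respiratory chain and ATP synthase were broadly present, with 101 of 105 at a mean of at least 1 FPKM and 45 of at least 100. NDUFB1 of complex I measured 3576, 4284 and 4245 FPKM, and the ATP synthase genes ATP5MG, ATP5PF and ATP5F1E averaged 2748 ± 199, 2558 ± 164 and 2083 ± 116. Of 193 other mitochondrial genes (2.91% ± 0.0336) TOMM7 and TOMM6, small subunits of the import pore in the outer membrane, led with 4816 ± 390.1 and 4603 ± 284 FPKM, and the mitochondrial ribosomal gene MRPS16 followed with 2456. In redox defence and iron storage (73 genes, 1.34% ± 0.0372) the ferritin light chain FTL measured 4994, 5335 and 6092 FPKM, and the heavy chain FTH1 305, 238 and 185. FTL was highest and FTH1 lowest in the same library, control 3. GSTM3 averaged 1355 ± 93.1 and the peroxiredoxin PRDX1 962 FPKM.

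Protein turnover was led by the ubiquitin gene UBB, with 7187, 8527 and 6465 FPKM. SUMO2, a ubiquitin-like modifier, averaged 4561 ± 527 and the conjugating enzyme gene UBE2D3 2864 ± 202 FPKM. SKP1, the adaptor of SCF ubiquitin ligases, which was counted with the cell cycle class, measured 5226, 5504 and 5304 FPKM, while the scaffold CUL1 measured 8.81, 8.25 and 4.92. The proteasome (51 genes) held 1.06% ± 0.0277, led by PSMA5 at 2182 ± 94.5 and PSMA7 at 1277 FPKM. In RNA synthesis and splicing MAGOH of the exon junction complex averaged 3294 ± 347, SNRPE of the spliceosome 3173 ± 538 and POLR2J of RNA polymerase II 3019 ± 95.0 FPKM.

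Several further classes were described by their leading genes. Transcription factors and their regulators had 596 genes, but ID3 made up 54.6% of the class, followed by ZNF706 at 2060 ± 156 FPKM. Vesicle traffic (366 genes, 2.18% ± 0.0630) was led by ARF4 at 3095 ± 115 FPKM and SEC61B, a subunit of the translocation pore, at 1471 ± 21.4. DNA replication and repair (120 genes) held 0.826% ± 0.0317 with RPA3, ORC5, PCNA and TYMS averaging 743, 682, 552 and 549.9 FPKM. Apoptosis control held 0.716% ± 0.0406, of which BCL2L10, an oocyte member of the BCL2 family, was 62.4%. Glycolysis and carbon metabolism held 0.521% ± 0.0259, led by the fatty acid carrier FABP3 at 1537 FPKM and citrate synthase CS at 1114. Solute carriers and channels held 0.531% ± 0.0309, with the cationic amino acid carrier SLC7A3 at 711 FPKM.

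Single members dominated several gene families. TMSB4X held 99.4% of the thymosin beta FPKM in each control, over the 2 of 4 listed genes that were matched by symbol. ID3 held 99.9% of the FPKM of the 4 ID genes in the library where its share was lowest. BTG4 held 98.9% to 99.2% over the 6 BTG and TOB genes, and BCL2L10 held 98.5% to 98.8% over 11 BCL2 family genes. Among importin alpha genes the oocyte form KPNA7 held 93.3% to 93.7%, and the best of the somatic ones, KPNA2, averaged 94.9 ± 12.4 FPKM. These families were picked after their leading members had been seen, so the shares describe them and support nothing further.

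Subunits of a complex, which the cell assembles in fixed proportions, differed by orders of magnitude. Over the 12 genes of RNA polymerase II the mean FPKM ran from 6.36 ± 0.284 for POLR2A to 3019 for POLR2J, with a median of 47.4. The highest of the 12 was 450.1 to 519 times the lowest within each library. The 14 genes of the 20S proteasome core ran from PSMA2 at 6.43 ± 3.15 to PSMA5 at 2182 FPKM, and 12 eIF3 genes from EIF3D at 1.68 ± 1.05 to EIF3E at 952 ± 55.9. The 13 subunits of the anaphase-promoting complex ran from ANAPC7 at 3.46 ± 0.831 to ANAPC15 at 1044 ± 65.1 FPKM. The MCM helicase was more even, from MCM3 at 5.32 ± 2.26 to MCM4 at 66.8 ± 5.77. These complexes were chosen after values had been seen, and transcript lengths, poly(A) tails and shared reads were not tested as sources of the differences.

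**Figure D3:**
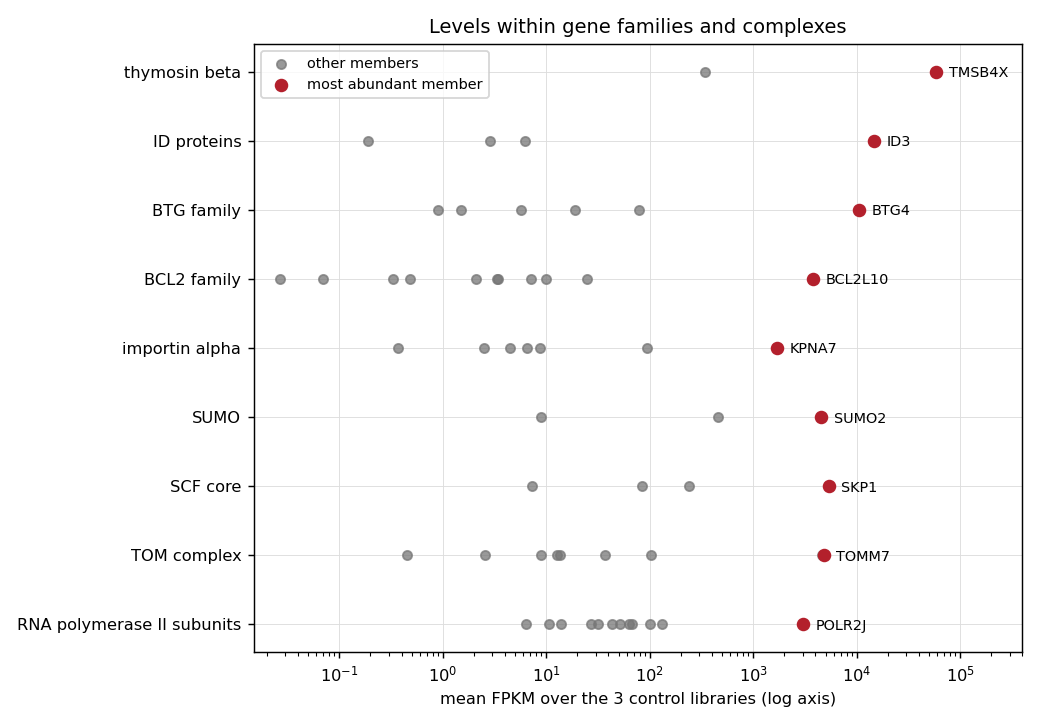
Mean FPKM over the 3 control libraries, on a log axis, of each matched member of 9 gene families and complexes, with the most abundant member in red and named. TMSB4X, ID3, BTG4 and BCL2L10 lie at least 135 times above the next member of their family.

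Outside the classes, 29 of the 100 most abundant genes had a symbol that no class listed and 3 had a LOC symbol. They included SKA1, YPEL5 at 4972, 4779 and 5328 FPKM, the cyclin gene CCNQ at 2922 ± 191 and the ornithine decarboxylase antizyme OAZ1 at 2592 ± 161. The gene models LOC101905933 and LOC785745 ranked 9 and 12 by mean, at 6721 ± 719 and 5622 ± 707 FPKM. The 1678 LOC models held 3.51% ± 0.0539 of the sum.

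Spread between the controls was small and fell with level. Among genes with a mean of at least 10 FPKM the median CV was 0.131. By level it was 0.245 for genes at 1 to 3 FPKM, 0.151 at 10 to 30, 0.112 at 100 to 300 and 0.0836 at 1000 or more. Of the 4525 genes with a mean of at least 10, 65 had a CV of at least 0.5 (1.44%), and these are called variable here. Most were low, with 44 of them between 10 and 30 FPKM and 8 at 100 or more. Many genes lay at the lower level in any case, since these ranges held 2004 and 1146 of the 4525 genes. Just inside the limit lay SMARCC1 at 0.506 and PHOX2A at 0.504, and just outside RPL3 at 0.499 and MRNIP at 0.497. A CV over 3 libraries is imprecise, and the variable genes were chosen by it, so their values are a description. With each library left out in turn 60 to 87 genes passed, and of the 65 only S100A11 passed all 3 times. The minimum mean of 10 FPKM was applied again to the remaining libraries, so a gene could also fail by its level. CSRP3 kept a CV of 0.601, 1.29 and 1.36 without controls 1, 2 and 3, yet did not pass each time. For the 20 genes with the highest CV, the CV stayed at or above 0.5 in 49 leave-outs and fell below it in 11.

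**Figure D4:**
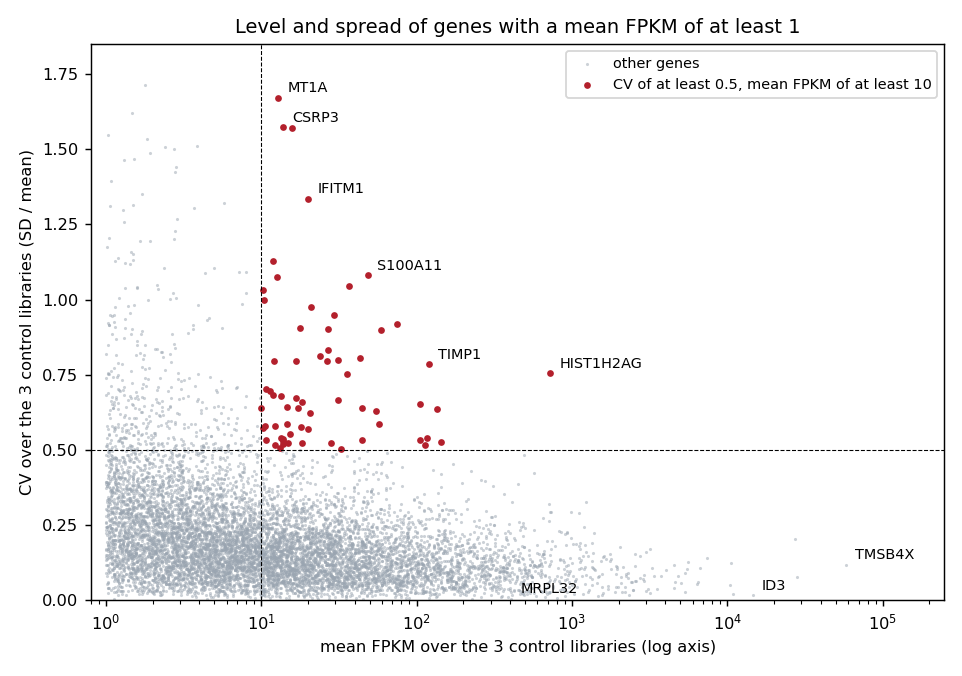
CV over the 3 control libraries against mean FPKM (log axis), with 1 point per gene with a mean of at least 1 FPKM. The 65 genes with a CV of at least 0.5 and a mean of at least 10 are red, and 0 of them reach a mean of 1000.

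Of the 65 variable genes, 16 were highest in control 1 and lowest in control 3, and 15 highest in control 2 and lowest in control 3. A further 15 were highest in control 1 and lowest in control 2, so this order was not particular in its count. Its share over all 4525 genes was not counted, but control 1 was highest in 40.7% of them and control 2 lowest in 32.1%. Some of the genes highest in control 1 and lowest in control 2 follow. MT1A, a metallothionein that binds zinc, measured 37.9, 0.44 and 0.47 FPKM in controls 1, 2 and 3. CSRP3, a muscle LIM protein, measured 39.0, 0.73 and 1.81. S100A11, a calcium-binding protein, measured 108, 7.17 and 31.2 FPKM, and its neighbour in the genome S100A10 measured 23.7, 6.61 and 9.78. The matrix protease inhibitor TIMP1 measured 191, 13.1 and 157 FPKM, so control 2 alone was low. RARRES2, the chemerin precursor, measured 57.3, 7.18 and 29.7 FPKM. Over the 21 cumulus and granulosa markers the median was 1.98, 0.69 and 1.99 FPKM in the same libraries, lowest in control 2, but their sum was 196, 178 and 168 FPKM, lowest in control 3. The 9 matched theca and stroma markers summed to 16.3, 7.36 and 10.9 FPKM, lowest in control 2, with LUM at 7.39, 0.38 and 0.61 and ACTA2 at 7.28, 6.69 and 9.21. The part of such cells in these differences was not tested.

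Interferon-inducible membrane proteins of the IFITM family, which block virus entry, were high in control 1. IFITM1 measured 51.2, 2.99 and 6.32 FPKM, the first IFITM3 model 44.4, 12.9 and 5.84, and a further IFITM3 model (gene-IFITM3) 35.8, 4.72 and 12.9. The 3 lie beside each other on chromosome 29, with 0 and 1 coding genes between them, and similar copies may share reads. The small heat shock gene HSPB1 followed the same library, with 46.1, 16.1 and 9.61 FPKM, and REM2 measured 32.0, 12.4 and 6.30. In all, 31 of the 65 variable genes were highest in control 1, which was the highest in 40.7% of all 4525 genes.

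Several variable genes are related copies that moved together, and similar copies may share reads. The LOC540128, LOC509884 and LOC510901 models, named OR4X2, OR4X16 and OR4X2B in the RefSeq table, are olfactory receptor genes on chromosome 15, the first and second of them 4 coding genes apart and the last 2 adjacent. LOC510901 measured 72.8, 105 and 0.66 FPKM, LOC540128 31.5, 48.5 and 0.65, and LOC509884 31.5, 47.0 and 2.69. All 3 were low in control 3 alone. Several histones were highest in control 3. HIST1H2AG measured 447, 373 and 1357 FPKM, HIST1H1E 95.5, 55.0 and 166, and the histone H4 copies LOC530773 (H4C16) and LOC527645 (H4C11) 14.2, 15.2 and 81.5, and 14.3, 12.3 and 61.6. LOC527645 and HIST1H2AG lie 1 coding gene apart on chromosome 23. The variant histone H2AFZ was highest in control 1 instead, at 33.3, 14.2 and 12.9 FPKM. LOC526789 was high in control 2 alone, at 0.87, 44.5 and 2.06 FPKM, and LOC100297099 was low in control 3, at 142, 77.1 and 5.06. The variable model adjacent to LOC100297099 on the X chromosome, LOC100297779, did not follow it, at 9.11, 28.2 and 17.55 FPKM.

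Other variable genes had a pattern of their own. The acetyltransferase NAA11 measured 8.68, 43.1 and 79.0 FPKM, the mitochondrial gene NIPSNAP3A 10.2, 0.43 and 27.4, and TMEM176B 8.41, 0.54 and 26.6. The calmodulin-like gene CALML4 was highest in control 2, at 17.5, 50.4 and 11.4 FPKM. PIGW and ZNHIT3, which lie 1 coding gene apart on chromosome 19, were both highest in control 2 and lowest in control 3, with PIGW at 34.9, 50.4 and 8.95 FPKM. Variable neighbours did not always share their order. RARRES2 and LRRC61, 2 coding genes apart on chromosome 4, were both highest in control 1 but lowest in controls 2 and 3, respectively. LOC107131556 measured 5.35, 3.54 and 22.4, and LOC112441471 10.9, 22.1 and 3.07.

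**Figure D5:**
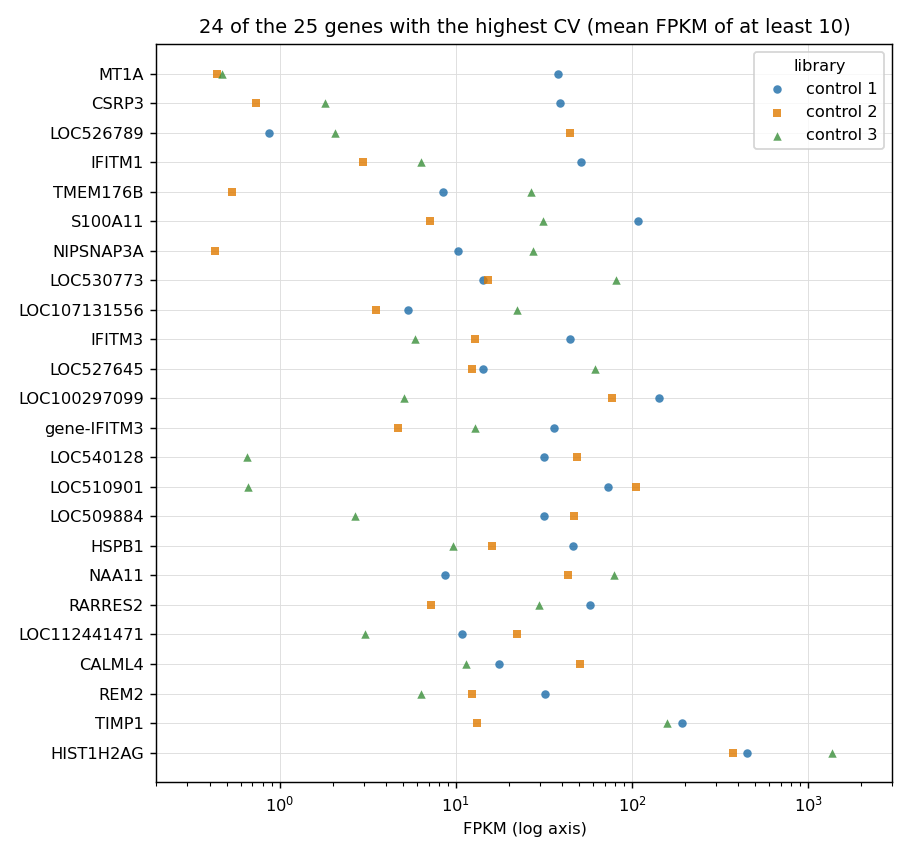
FPKM, on a log axis, of 24 of the 25 genes with the highest CV among those with a mean of at least 10 FPKM, with 1 point per control library. MT1A, CSRP3 and IFITM1 are high in control 1 alone, the olfactory receptor models LOC540128, LOC510901 and LOC509884 are low in control 3 alone, and TIMP1 is low in control 2 alone.

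By class, LOC models made up 14 of the 65 variable genes (21.5%) against 3.27% of the genes with a mean of at least 10. Of the 148 LOC models at that level 9.46% were variable, and of 24 genes with a histone symbol 3, HIST1H2AG, HIST1H1E and H2AFZ, both beside the 1.44% of all genes. The H4 copies LOC530773 and LOC527645 were counted with the LOC models. Vesicle traffic had 4 of 150 members variable, and meiotic cell cycle control 0 of 68. The oocyte coat, oocyte secreted, maternal effect and mRNA decay classes also had 0 variable members, of 4, 5, 25 and 55 measured at that level. Their median CV was 0.0905, 0.106, 0.130 and 0.131, beside 0.131 over all genes at that level. A count of 0 was not particular to these classes or to meiotic control. Ubiquitin and its conjugation had 0 of 128 members variable, transcription factors 0 of 114 and the spindle class 0 of 87. At 1.44% over all genes, sets of these sizes would hold few variable members or none.

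At the other end stood genes whose 3 values nearly coincided. The mitochondrial ribosomal gene MRPL32 measured 405, 408 and 408 FPKM, and CIB1, a calcium-binding protein, 797, 806 and 797. The fatty acid activating enzyme ACSL3 measured 45.0, 44.9 and 45.3 FPKM, the RNA-binding protein gene TARDBP 40.6, 40.2 and 40.7, and the secretory pathway gene TMED4 229, 227 and 228. AP3M1, RPS9, MTM1, SUCO and ACTR8 complete the 10 with the lowest CV. These genes were chosen for their low CV.

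The spread of the variable genes was then read in the 3 MTFP1 knockdown libraries, which the choice had not used, within those libraries only. There 17 of the 65 (26.2%) had a CV of at least 0.5, beside 37 of the 4460 genes below the limit in the controls (0.830%). The median CV was 0.394 for the 65 and 0.129 for the 4460. These sets were not matched for level, since their median control level was 18.3 and 36.8 FPKM, and spread rose as level fell. All genes at 10 to 30 FPKM in the controls had a median CV of 0.143 in the knockdown libraries. No minimum level was set in the knockdown libraries. TIMP1 had a CV of 1.59 there, LOC530773 1.05, CSRP3 1.05, S100A11 0.930 and RARRES2 0.894. MT1A did not share this, with a CV of 0.0687 in those libraries beside 1.67 in the controls. Of the 15 variable genes that were highest in control 1 and lowest in control 2, 8 had a CV of at least 0.5 in the knockdown libraries. No test was made of these shares.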

How the data were processed

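The authors deposited 1 table per library with an FPKM value, to 2 decimals, for each of 17325 genes. RNA was extracted with TRIzol and libraries were made with a BGI dual-mode mRNA kit, per the labels' protocols. Build ARS-UCD1.2 and 4 tools appear, without roles, per the submitters' processing notes: RSEM 1.3.1, HISAT2 2.2.1, DESeq2 1.4.5, Bowtie2 2.3.4.3. How strand and shared reads were handled is not stated there. Depth is unknown. FPKM shares move with any very abundant gene.

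Samples were grouped by title. Mean, SD, CV, rank and share of the summed FPKM were computed over the 3 controls with Python 3.11.15, pandas 2.3.3 and numpy 2.4.6. The spread calculation was checked on simulated data. No group comparison and no test was made. Classes were matched by symbol. In the files 24 symbols were missing or had the form of a date or number, and were replaced by gene ID where RefSeq named the gene. Of the gene IDs 17087 matched RefSeq (ARS-UCD2.0, used for names and gene order). Plots used matplotlib 3.10.9.

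Genes named are the 30 most abundant, up to 6 leading members per class, the 20 highest and 10 lowest CVs at a mean FPKM of at least 10, the markers and MTFP1. Other genes, the families and the complexes were picked with their values in view. The members and lists were chosen with earlier results of these data known. Protein lengths were not analysed here, and some genes the rule names are not reported here. Alternatives were other scalings, minimum levels, spread measures and leaving out each library.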

Additional observations from a re-analysis of the deposited data

How the results depend on the processing

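The numbers of genes at or above 1, 10, 100 and 1000 FPKM stayed within 1.5 times of those reported under every scaling and with each library left out. Without ribosomal protein and histone genes the 10 most abundant genes held 22.9% and the 100 most abundant 48.5%, while the share of the top 1000 moved by less than its SD.

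Leaving out a library cannot move the mean share of a functional class by as much as its SD over the controls, so that alternative decides nothing. The shares depend on weighting by FPKM. As shares of summed log2(FPKM + 1), in which single abundant genes weigh little, meiotic cell cycle control held 1.52%, the cytoskeleton 0.822%, cytosolic ribosomal proteins 1.75%, the respiratory chain 1.60% and ubiquitin 2.74%. Transcription factors held 2.97%, RNA synthesis and splicing 2.1999%, other mitochondrial genes 2.16%, mRNA decay and translation control 1.02%, vesicle traffic 3.05%, the spindle 1.71% and histones 0.535%. Oocyte secreted factors held 0.122%, the oocyte coat 0.0959%, maternal effect genes 0.478%, redox defence 0.715%, chromatin 1.25%, the proteasome 0.688%, translation factors 0.888%, DNA replication 1.17%, chaperones 1.12%, apoptosis control 0.354%, solute carriers 1.72%, glycolysis 0.594% and nuclear transport 0.482%. LOC models held 4.27% and genes in no class 64.0%.

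The number of variable genes depends on the minimum level. It was 465 at a mean of at least 1 FPKM, 117 at 5, 12 at 50 and 4726 with no minimum, and 39 with an SD of log2(FPKM + 5) of at least 0.75 in place of the CV. Of these genes 175, 31, 2 and 2840 had a CV of at least 0.5 in the knockdown libraries at minimum levels of 1, 5, 50 and none. With a control library left out, 60 to 87 genes were called, but only S100A11 of the 65 was called each time. The minimum mean of 10 FPKM was applied again there and the CV rests on 2 values, so these calls do not show the spread alone. Of the 65, 38 were called without control 1, 46 without control 2 and 32 without control 3. The median CV was 0.140 after rescaling to equal sums and 0.132 with median-ratio scaling. It was 0.166, 0.141 and 0.112 at minimum levels of 1, 5 and 50, and 0.258 with none. With a library left out it was 0.104 to 0.106. A CV over 2 values has a lower median than one over 3 at the same spread, so that alternative decides nothing here. No paired analysis was possible because no groups were compared and no result comes from a test.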

Other observations

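IFNL3, a type III interferon, was listed at 8.50, 12.6 and 24.8 FPKM in controls 1, 2 and 3 and was among the 65 variable genes, while the receptor gene IFNLR1 measured 0.50, 0.58 and 0.34. IFNL3 was highest in control 3, whereas IFITM1, an interferon-inducible gene, was highest in control 1 at 51.2 FPKM. Of the receptor genes of type I interferon, IFNAR1 measured 0.51, 0.11 and 0.45 FPKM, overlapping IFNLR1, and IFNAR2 was listed at 0, 0 and 0.08.

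Metallothionein genes did not move as a family. MT3 measured 318, 374 and 293 FPKM, while MT1A, MT1E and MT2A were all highest in control 1, at 37.9, 14.5 and 12.9 FPKM, and measured 0.44, 0.95 and 5.52 in control 2.

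Some genes named for other cells were measured in all 3 controls. The hemoglobin gene HBA measured 45.1, 61.8 and 74.1 FPKM and HBA1 11.6, 18.1 and 17.1, while the erythroid enzyme gene ALAS2 was listed at 0, 0.03 and 0. GATA3, a trophoblast transcription factor, measured 32.9, 40.8 and 36.5 FPKM beside CDX2 at 2.22 ± 0.347. STAR and HAS2, listed as cumulus markers, varied little (72.6, 67.3 and 54.5, and 40.2, 39.9 and 33.8 FPKM) beside TNFAIP6 of the same list at 5.31, 1.51 and 17.1.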
